A study of Mus musculus with 9 samples.

Results

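The 3 small RNA libraries labelled Homo KO were compared with the 3 labelled Hete KO, and the 3 WT libraries served to place both on a scale of 0, 1 and 2 knockout alleles. The 6 knockout libraries were taken by their genotype label alone, out of 9 in the series. Each library came from the subcutaneous adipose tissue of an individual mouse, and every mouse was 24 weeks of age, with the last 16 weeks, from week 8 on, spent on a diet rich in fat and sucrose. Homo_KO and Hete_KO stand here for mice with Ago1 deleted in endothelial cells on both or on 1 of the alleles, as the words homozygous and heterozygous imply, and WT for wild-type littermates. The promoter that restricts the deletion to endothelial cells and the mouse strain are stated in none of the labels. Each library lists the same 860 mature miRNAs, of which 489 had values high enough to be tested. Ago1 itself is not among them, so the genotype labels were taken as given.

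Ago1 encodes an Argonaute protein, the part of the silencing complex that holds a mature miRNA and guides it to partly complementary mRNAs. A miRNA is cut from a hairpin, either arm of which (5p or 3p) can be loaded, and it recognises targets mainly through its seed, bases 2 to 8. miRNAs with the same seed form a family, and hairpins lying close together on 1 strand are often cut from 1 primary transcript, so both groupings are natural units for asking whether miRNAs change in step with the number of knockout alleles. Endothelial cells are a minority of the cells in adipose tissue, next to adipocytes, fibroblasts and immune cells, and each library measured the whole tissue. In such bulk samples fewer cells of a type and less of a miRNA per cell cannot be told apart.

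The sequences on which the results turn are given first, from RefSeq (GRCm38.p6), 5′ to 3′, with the seed in capitals. The first set holds the 5 miRNAs that passed the test of a line over the number of alleles. They are shown because the first and last of them are nearly the same sequence beyond the seed.
miR-3964: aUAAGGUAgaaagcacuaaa
miR-351-5p: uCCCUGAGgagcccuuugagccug
miR-342-5p: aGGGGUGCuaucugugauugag
miR-139-3p: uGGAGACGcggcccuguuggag
miR-142a-5p: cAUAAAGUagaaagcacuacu

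A second set allows seeds to be compared with relatives that did not pass the test. miR-125a-5p and miR-125b-5p carry the seed of miR-351-5p, miR-192-5p carries that of miR-215-5p, and miR-221-3p and miR-222-3p share theirs.
miR-125a-5p: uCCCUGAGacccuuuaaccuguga
miR-125b-5p: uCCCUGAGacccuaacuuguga
miR-215-5p: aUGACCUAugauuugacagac
miR-192-5p: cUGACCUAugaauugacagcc
miR-221-3p: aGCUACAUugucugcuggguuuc
miR-222-3p: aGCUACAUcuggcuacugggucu

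The third set is the family with the seed AUUGCAC, the members of which lie on 5 chromosomes, followed by 4 other miRNAs of the miR-17-92 cluster, shown because miR-92a-3p belongs to both groups.
miR-25-3p: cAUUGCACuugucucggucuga
miR-32-5p: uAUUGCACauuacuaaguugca
miR-92a-3p: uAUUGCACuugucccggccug
miR-92b-3p: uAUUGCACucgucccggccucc
miR-363-3p: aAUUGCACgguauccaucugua
miR-17-5p: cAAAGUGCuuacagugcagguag
miR-18a-5p: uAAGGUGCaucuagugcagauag
miR-19b-3p: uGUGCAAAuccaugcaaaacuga
miR-20a-5p: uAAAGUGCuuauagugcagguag

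All levels are the authors' log2 values after quantile normalization, a step that forces 1 common distribution of values on all libraries, and differences are differences of those values. Sequencing depth is unknown, and between 63 and 152 miRNAs stood at a library's lowest value, its floor. The count at the floor was 70, 104 and 63 in WT, 101, 152 and 105 in Hete_KO and 116, 141 and 102 in Homo_KO. The means were 79, 119 and 120 in order of alleles, and WT replicate 2 lay within the knockout range. Pearson correlations over miRNAs were 0.956 to 0.991 between Hete_KO and Homo_KO libraries, and 0.963 to 0.982 within Hete_KO. Some libraries differed in miRNAs of other tissues. The mean of 4 skeletal muscle miRNAs was 13.40, 13.73 and 7.56 in WT and 10.04, 14.35 and 8.76 in Hete_KO. In Homo_KO it was 11.68, 6.17 and 7.40, so the group means were 11.56, 11.05 and 8.42 in order of alleles. The mean of 11 epithelial miRNAs was 7.94 in Hete_KO replicate 1 and 5.94 to 6.53 in the other 5 knockout libraries. Hete_KO replicate 2 therefore had the most muscle miRNA and replicate 1 the most epithelial miRNA, and results that rest on either are given with and without it.

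The knockout genotypes were close to each other for most miRNAs. No miRNA passed the test between them (limma, Benjamini-Hochberg adjusted p under 0.05), so the share called was 0.0% of 489, and the smallest adjusted p was 0.509. Without adjustment, 41 miRNAs (8.38%) had a p under 0.05, 31 of them higher (6.34%) and 10 lower (2.04%) in Homo_KO. The 3 Homo_KO libraries lay above all 3 Hete_KO libraries for 44 miRNAs (9.0%) and below them for 16 (3.27%). The difference was under 0.5 in size for 405 miRNAs (82.8%), with a median 95% half-width of 0.55, and its 95% interval lay within 1 either way for 348 (71.2%). In simulated data with the spread of these libraries, 18% of differences of 0.5 and 68% of differences of 1 were recovered. Differences of this size can thus be missed with 3 mice a group. The simulation changed 200 of the 489 miRNAs, by 0.5 to 3. The adjustment is stricter where fewer miRNAs change, so these shares may overstate recovery here.

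**Figure D1:**
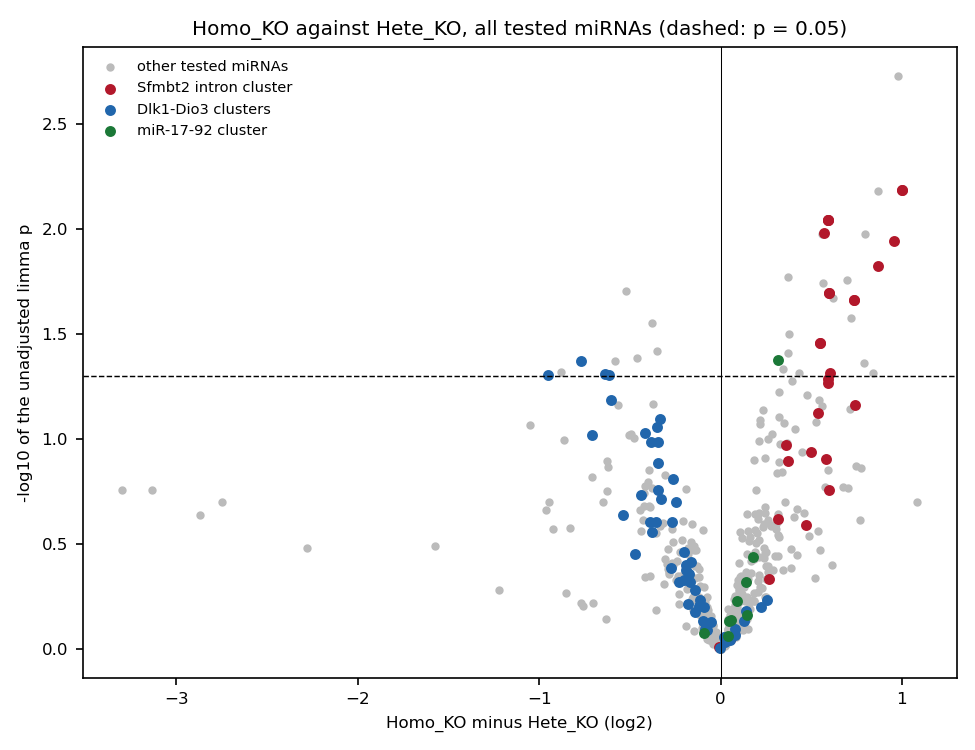
Difference between Homo_KO and Hete_KO (log2, horizontal) against −log10 of the unadjusted limma p (vertical) for 489 miRNAs, 3 mice a group. Points of the Sfmbt2 intron cluster lie almost all to the right of 0 and those of the Dlk1-Dio3 clusters mostly to the left, and no point passed the adjusted threshold.

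By p, the differences between the knockout genotypes that stood out most were those of miR-3964 and of miRNAs of the miR-467 and miR-34 families. The largest in size were those of muscle miRNAs, which varied between mice of 1 genotype: miR-133b-3p and miR-1a-3p differed by −3.30 and by −3.14 ± 2.14 (adjusted p = 0.779 for miR-1a-3p). miR-467a-5p, one of many related miRNAs in an intron of Sfmbt2, was at 5.46, 4.35 and 5.17 in the Hete_KO mice and at 6.22, 5.92 and 5.85 in the Homo_KO mice. The groups did not overlap, and the difference had a 95% interval of 0.35 to 1.64 (limma adjusted p = 0.509). miR-467b-5p holds the identical values. miR-34c-5p, a p53-responsive miRNA, was at 6.93, 6.44 and 6.66 in Hete_KO and 7.87, 7.30 and 7.47 in Homo_KO, again without overlap, with a difference of 0.87 ± 0.25 (adjusted p = 0.509). Its WT libraries were at 7.48, 6.79 and 6.70 and so spanned the gap between the knockouts. On the lower side miR-3068-3p, from an intron of Alkbh1, was at 6.26, 6.73 and 6.46 in Hete_KO and 5.92, 6.18 and 5.79 in Homo_KO (difference −0.52 ± 0.19, adjusted p = 0.509). The knockouts did not overlap, and WT, at 6.34, 6.26 and 6.12, overlapped both.

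A straight line over 0, 1 and 2 alleles was fitted to all 9 libraries. With 3 libraries at each allele number, its slope is set by the WT and Homo_KO means alone. Hete_KO enters only through the spread around the line. This test was passed by 5 of 489 miRNAs (1.02%, limma, Benjamini-Hochberg adjusted p under 0.05), 2 of them rising (0.409%) and 3 falling (0.613%). An unadjusted p under 0.05 was found for 112 (22.9%), 62 upward (12.7%) and 50 downward (10.2%). A call therefore does not show that Hete_KO differs from WT or from Homo_KO, nor that the change per allele was equal. All 9 libraries were in the order of allele number, with no overlap between neighbouring genotypes, for 3 miRNAs (0.613%): miR-3964 and miR-1843a-5p upward and miR-351-5p downward.

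miR-3964, from a hairpin on chromosome 15 (29713331 to 29713404, minus strand, GRCm38, in no other annotated gene), was at 6.02, 6.14 and 6.08 in WT, 6.77, 6.57 and 7.41 in Hete_KO and 7.66, 8.13 and 7.90 in Homo_KO. Each step was larger than the spread within a genotype. The slope was 0.91 ± 0.11 per allele (SE, limma adjusted p = 0.00353), made up of steps of 0.84 from WT to Hete_KO and 0.98 from Hete_KO to Homo_KO. miR-142a-5p, a miRNA of blood-forming cells cut from a hairpin in an intron of Mir142hg (chromosome 11, 87756864 to 87756927), was at 10.58, 10.56 and 10.58 in WT, 11.47, 10.39 and 11.24 in Hete_KO and 11.85, 12.02 and 11.63 in Homo_KO. Homo_KO lay above both other groups, while Hete_KO replicate 2 was below WT. Its slope was 0.63 ± 0.12 (adjusted p = 0.0408).

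The sequences of these 2 risers are close enough that reads may be shared between them. Aligned without gaps, their sequences match at 17 of 20 bases, 13 of them in 1 run, although their seeds differ (UAAGGUA and AUAAAGU) because the alignment is offset by a base. No other pair among the 5 miRNAs came so close: the best match of miR-351-5p to any other listed miRNA was 13 of 22 bases. How such reads were assigned is not stated in the labels. miR-142a-5p exceeded miR-3964 by 4.42 to 4.56 in WT, by 3.82 to 4.70 in Hete_KO and by 3.73 to 4.19 in Homo_KO. The gap was therefore narrower in all 3 Homo_KO libraries than in any WT library, miR-3964 having risen by more. The other arm of the miR-142a hairpin, miR-142a-3p, was at 12.21, 12.32 and 11.85 in WT, 11.98, 10.92 and 11.98 in Hete_KO and 12.44, 12.38 and 12.21 in Homo_KO. It was lowest in Hete_KO, and its slope was 0.11 ± 0.17 (adjusted p = 0.72). Of the 7 leukocyte miRNAs listed, 6 were higher in Homo_KO than in Hete_KO, as were 56.6% of all tested miRNAs. Means rose from WT over Hete_KO to Homo_KO for 2 of the 7, near the share of 25.6% over all. The mean of the 7 was 10.94 to 11.59 in Hete_KO and 11.57 to 11.85 in Homo_KO, a difference of 0.39 (exact permutation test, two-sided p = 0.2, where 3 mice against 3 cannot give less than 0.1, and 0.8 adjusted over 8 marker lists). The part of leukocytes in the rise of miR-142a-5p was not tested.

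**Figure D2:**
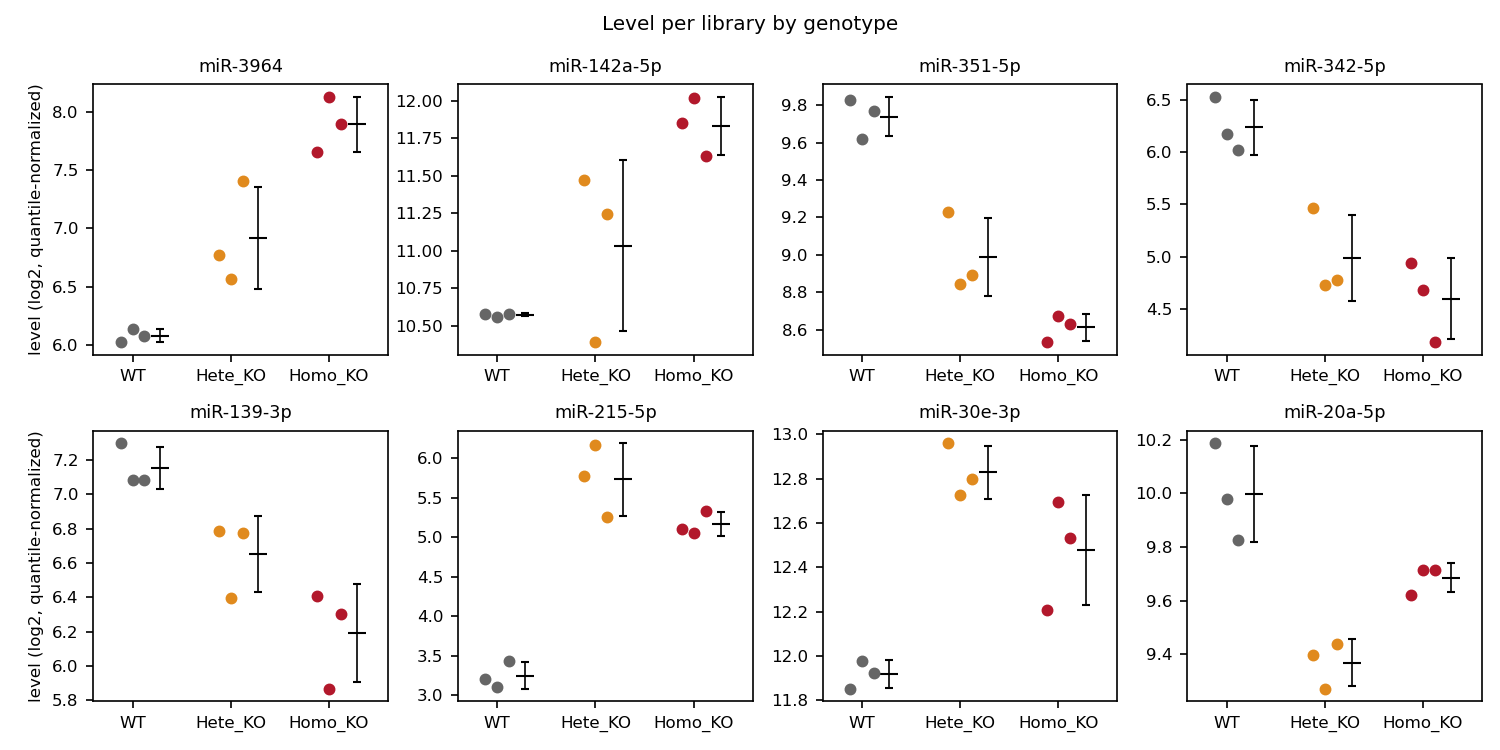
Level per library (log2, vertical) of 8 miRNAs by genotype. Points are mice, the bar is the mean with the SD over 3. miR-3964 and miR-351-5p step in allele order with no overlap, whereas miR-215-5p and miR-30e-3p are highest, and miR-20a-5p lowest, in Hete_KO.

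miR-351-5p was the only tested miRNA to fall with no overlap between neighbouring genotypes. Its hairpin lies on the X chromosome (53053255 to 53053353, minus strand) in a cluster with miR-322 and miR-503, miRNAs known for restraining cell division. It was at 9.83, 9.62 and 9.77 in WT, 9.23, 8.84 and 8.89 in Hete_KO and 8.53, 8.67 and 8.63 in Homo_KO. The slope was −0.56 ± 0.08 (SE, limma adjusted p = 0.00557), with −0.75 from WT to Hete_KO and −0.38 ± 0.14 from Hete_KO to Homo_KO (adjusted p = 0.593). Most of the step thus came with the first allele, but the departure of Hete_KO from the midpoint of the other genotypes was −0.19 ± 0.13 (adjusted p = 0.689). The relatives with the same seed, which are far more abundant, gave other values: the slope was 0.25 ± 0.14 for miR-125a-5p (adjusted p = 0.315) and 0.10 ± 0.11 for miR-125b-5p (adjusted p = 0.601).

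The X-linked cluster as a whole (53047997 to 53054349, 11 tested miRNAs from 7 hairpins) was lower in both knockouts than in WT, with little between them. The median difference was −0.41 from WT to Hete_KO and −0.05 from Hete_KO to Homo_KO, beside −0.02 and 0.04 over all tested miRNAs. Group means fell in allele order for 7 of the 11, and in order downward for 21.5% of all. miR-503-5p was at 9.37, 9.60 and 9.01 in WT, 8.48, 8.47 and 8.67 in Hete_KO and 8.46, 8.64 and 8.51 in Homo_KO. WT lay above both knockouts, which overlapped each other, with a difference of 0.00 ± 0.17 (95% interval −0.38 to 0.38). miR-322-5p, the most abundant of the cluster, differed by −0.09 ± 0.16 between the knockouts. The median of the cluster for Homo_KO against Hete_KO ranged from −0.11 to 0.03 as each library was left out in turn, so the second step has no settled direction.

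The other 2 fallers are less abundant arms of hairpins in introns. miR-342-5p, from an intron of Evl (chromosome 12, 108658620 to 108658718), was at 6.53, 6.17 and 6.02 in WT, 5.46, 4.73 and 4.78 in Hete_KO and 4.94, 4.68 and 4.18 in Homo_KO. WT was above both knockouts, which overlapped. The slope was −0.82 ± 0.16 (limma adjusted p = 0.0408), and miR-342-3p, the abundant arm, had −0.39 ± 0.17 (adjusted p = 0.206). miR-139-3p, from an intron of Pde2a (chromosome 7, 101475376 to 101475443), was at 7.30, 7.09 and 7.09 in WT, 6.79, 6.40 and 6.78 in Hete_KO and 6.41, 5.87 and 6.30 in Homo_KO, with 1 Homo_KO value inside the Hete_KO range. Its slope was −0.48 ± 0.09 (adjusted p = 0.0408), with steps of −0.50 and −0.46. The abundant arm miR-139-5p had −0.15 ± 0.08 (adjusted p = 0.312). With each of the 9 libraries left out in turn, miR-3964 and miR-351-5p passed the test in all 9 fits. miR-342-5p passed in 2 of the 9, and miR-139-3p and miR-142a-5p in 1, that without Hete_KO replicate 2. In all 9 libraries, with each library's count at its floor as a covariate, miR-3964 alone passed and miR-351-5p did not. With muscle miRNA as a covariate, miR-3964 and miR-351-5p passed. None of the 5 passed without the 3 libraries with most muscle miRNA, where 6 mice remain.

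Next in order of p came miR-154-5p of the Dlk1-Dio3 region, with a slope of −0.43 ± 0.09, and miR-129-2-3p, a neural miRNA, with 1.41 ± 0.30 (limma adjusted p = 0.0519 for both). miR-154-5p was at 6.65, 6.64 and 6.61 in WT, 6.30, 5.96 and 6.11 in Hete_KO and 6.07, 5.69 and 5.55 in Homo_KO. Its WT libraries stood above all knockout libraries, and the knockouts overlapped in 1 library. miR-221-5p had a slope of −0.48 ± 0.11 and miR-26a-1-3p one of 0.97 ± 0.22 (adjusted p = 0.0616 for both).

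The opposite question is which miRNAs leave the straight line, that is, have a Hete_KO mean off the midpoint of WT and Homo_KO, whether or not it lies between them. No miRNA passed that test (0.0% of 489, limma), and 44 (9.0%) had an unadjusted p under 0.05, with Hete_KO above the midpoint for 18 (3.68%) and below it for 26 (5.32%). The nearest was miR-215-5p, a p53-responsive miRNA whose hairpin lies opposite an intron of Iars2 (chromosome 1, 185313581 to 185313692). It was at 3.20, 3.11 and 3.44 in WT, 5.78, 6.17 and 5.26 in Hete_KO and 5.10, 5.06 and 5.34 in Homo_KO. Both knockouts lay far above WT, whose level is near the lowest values measured, and they overlapped each other. All WT libraries lay below the mean level required for testing, so this miRNA was tested only because of its knockout levels. Hete_KO departed from the midpoint by 1.53 ± 0.24 (limma adjusted p = 0.0545), and Homo_KO minus Hete_KO was −0.57 ± 0.28 (adjusted p = 0.645). With each library left out in turn, the departure ranged from 1.31 to 1.77, and 1 of 9 fits passed. Its adjusted p ranged from 0.0328 without Hete_KO replicate 3 to 0.300 without Hete_KO replicate 2. miR-192-5p, with the same seed, departed by 0.04 ± 0.56 (adjusted p = 0.978).

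The passenger arms of the miR-30 family, whose 5p arms are abundant in adipocytes, were also mostly highest in Hete_KO. miR-30e-3p, from an intron of Nfyc (chromosome 4, 120772606 to 120772697), was at 11.85, 11.98 and 11.92 in WT, 12.96, 12.73 and 12.80 in Hete_KO and 12.21, 12.69 and 12.53 in Homo_KO. All Hete_KO libraries were above all Homo_KO libraries, and these above WT. The departure was 0.63 ± 0.13 (limma adjusted p = 0.162). Hete_KO had the highest mean for 5 of 6 miR-30 3p arms, against 21.5% of all tested miRNAs, with a median of 0.65 from WT to Hete_KO and −0.10 from Hete_KO to Homo_KO. The second step ranged from −0.21 to −0.03, the latter without Homo_KO replicate 1. The 5 tested 5p arms gave 0.28 and 0.00 for the same steps.

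miR-17-92, a cluster on chromosome 14 (115043671 to 115044506, exon of Mir17hg) that promotes cell division and is active in endothelium, was lower in the knockouts than in WT and mostly lowest in Hete_KO. Of its 9 tested miRNAs, 7 were lowest in Hete_KO, against 31.1% of all tested miRNAs. The median was −0.56 from WT to Hete_KO and 0.09 from Hete_KO to Homo_KO. Without Hete_KO replicate 1 the second step was 0.04 with 3 of 9 negative, and 5 were lowest in Hete_KO. miR-20a-5p was at 10.19, 9.98 and 9.83 in WT, 9.40, 9.27 and 9.44 in Hete_KO and 9.62, 9.72 and 9.72 in Homo_KO, so that the 3 groups did not overlap and Homo_KO lay between the others. Its departure was −0.47 ± 0.12 (limma adjusted p = 0.427). miR-18a-5p was at 7.77, 7.72 and 7.50 in WT and at 6.87 to 7.07 in all 6 knockout libraries, with a departure of −0.41 ± 0.12 (adjusted p = 0.534). For this miRNA the knockouts overlapped. The mean of the 9, each centred on its own mean over libraries, was 0.28 ± 0.14 for WT, −0.19 ± 0.04 for Hete_KO and −0.09 ± 0.06 for Homo_KO (SD, 3 mice each), and the lowest Homo_KO library was above the highest Hete_KO library.

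miR-92a-3p, the last miRNA of that cluster, had means in rising order, as did the other miRNAs with its seed. It is also made from the Mir92-2 hairpin on the X chromosome, next to that of miR-363, and is no readout of the chromosome 14 cluster alone. The same holds for miR-19b-3p, also counted among the 9, which has a second hairpin, Mir19b-2, on the X chromosome. The 5 miRNAs with the seed AUUGCAC come from hairpins on 5 chromosomes, and all 5 had means rising from WT over Hete_KO to Homo_KO, against 25.6% of all tested miRNAs. The median steps were 0.08 and 0.32. None of the 5 passed a test. miR-92a-3p was at 12.27, 11.92 and 12.58 in WT, 12.21, 12.38 and 12.44 in Hete_KO and 12.38, 12.48 and 12.44 in Homo_KO. The groups overlapped, and Homo_KO minus Hete_KO was 0.09 ± 0.17 (limma adjusted p = 0.949). miR-32-5p, from an intron of Tmem245, was at 8.53, 8.51 and 8.69 in Hete_KO and 8.97, 8.94 and 8.89 in Homo_KO, with a difference of 0.35 ± 0.26 (adjusted p = 0.813). Those groups did not overlap, though WT ranged from 7.81 to 8.97. miR-25-3p, the most abundant of the family, differed by 0.01 ± 0.11. The order rests on single mice: without WT replicate 2 only 2 of the 5 means rose in order, 3 were lowest in Hete_KO, and the step from WT to Hete_KO was −0.00. Without Hete_KO replicate 1 the median between the knockouts was 0.05 and 4 rose in order, and with the stricter filter on low values, which leaves 3 of the 5, it was 0.09.

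**Figure D3:**
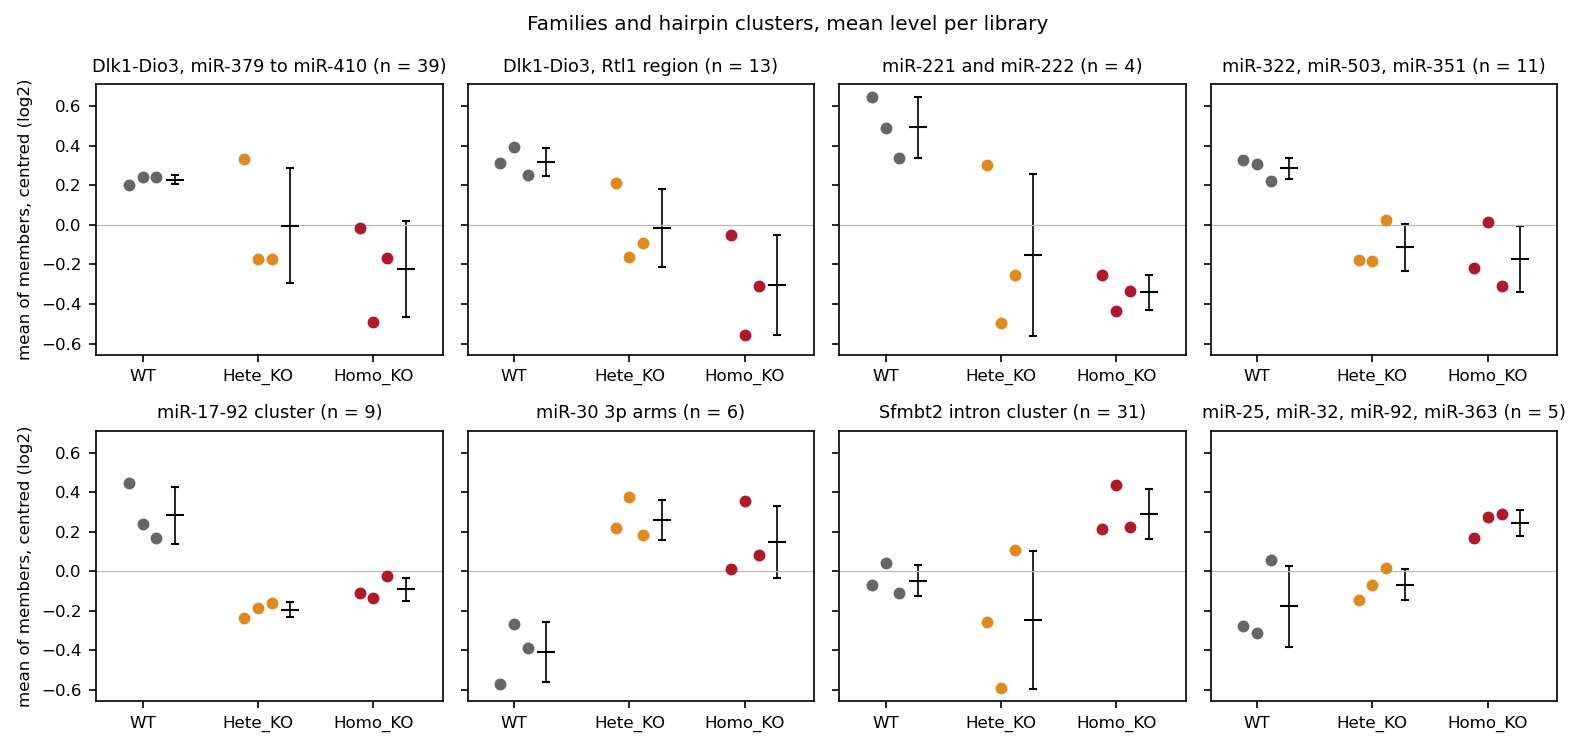
Mean level of the tested members per library, each miRNA centred on its mean over 9 libraries (log2, vertical), for 8 families and clusters by genotype. Points are mice, the bar is the mean with the SD over 3. The Dlk1-Dio3 means step down from WT to Homo_KO with overlap between the knockouts, and Hete_KO is lowest for the miR-17-92 and Sfmbt2 clusters.

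Over the 33 family and cluster lists with at least 3 tested members, the median moved the same way from WT to Hete_KO and from Hete_KO to Homo_KO in 18, upward in 11 and downward in 7. Of single miRNAs, 47.0% had group means in allele order. None of the lists held a miRNA called between Homo_KO and Hete_KO, and the 2 with a dose call hold it through miR-351-5p.

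The lists in downward order with the most members were the imprinted miRNA clusters of the Dlk1-Dio3 region on chromosome 12, miRNAs expressed from the maternal chromosome and linked to development and progenitor cells. In the cluster from Mir379 to Mir3072 (109709060 to 109747960), 62 mature miRNAs are listed and 39 were tested. Of these 32 were lower in Homo_KO than in Hete_KO, 24 had means falling in allele order and 0 had means rising, beside 21.5% and 25.6% of all tested miRNAs. The median steps were −0.16 and −0.19. In the cluster upstream of it, from Mir770 to Mir136 (109563692 to 109595388) around Rtl1, 11 of 13 tested miRNAs were lower in Homo_KO, 8 had means in falling order and 0 in rising order, and the steps were −0.36 and −0.27. No miRNA of either cluster passed any of the 3 tests.

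Single mice weighed on this order. The centred mean of the 39 miRNAs was 0.20, 0.24 and 0.24 in WT, 0.33, −0.17 and −0.17 in Hete_KO and −0.02, −0.49 and −0.17 in Homo_KO. WT was uniform, Hete_KO replicate 1 was above it, and Hete_KO replicates 2 and 3 lay within the range of Homo_KO. Leaving out Homo_KO replicate 2 reduced the median step between the knockouts to −0.06, and 26 of 39 remained negative, and without Hete_KO replicate 1 it was −0.07 with 23 of 39 negative. For the 13 miRNAs around Rtl1 it was −0.10 without Homo_KO replicate 2. Among single miRNAs, miR-1193-3p was at 4.92, 4.57 and 4.75 in WT, 4.05, 4.35 and 4.32 in Hete_KO and 3.40, 2.95 and 4.05 in Homo_KO, the last overlapping the lowest Hete_KO value. Its slope was −0.64 ± 0.16 (limma adjusted p = 0.064). miR-127-3p, the most abundant tested miRNA around Rtl1, was at 10.45, 10.95 and 10.52 in WT, 10.58, 9.62 and 9.74 in Hete_KO and 10.15, 9.56 and 9.95 in Homo_KO, a difference of −0.09 ± 0.27 between overlapping knockouts.

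**Figure D4:**
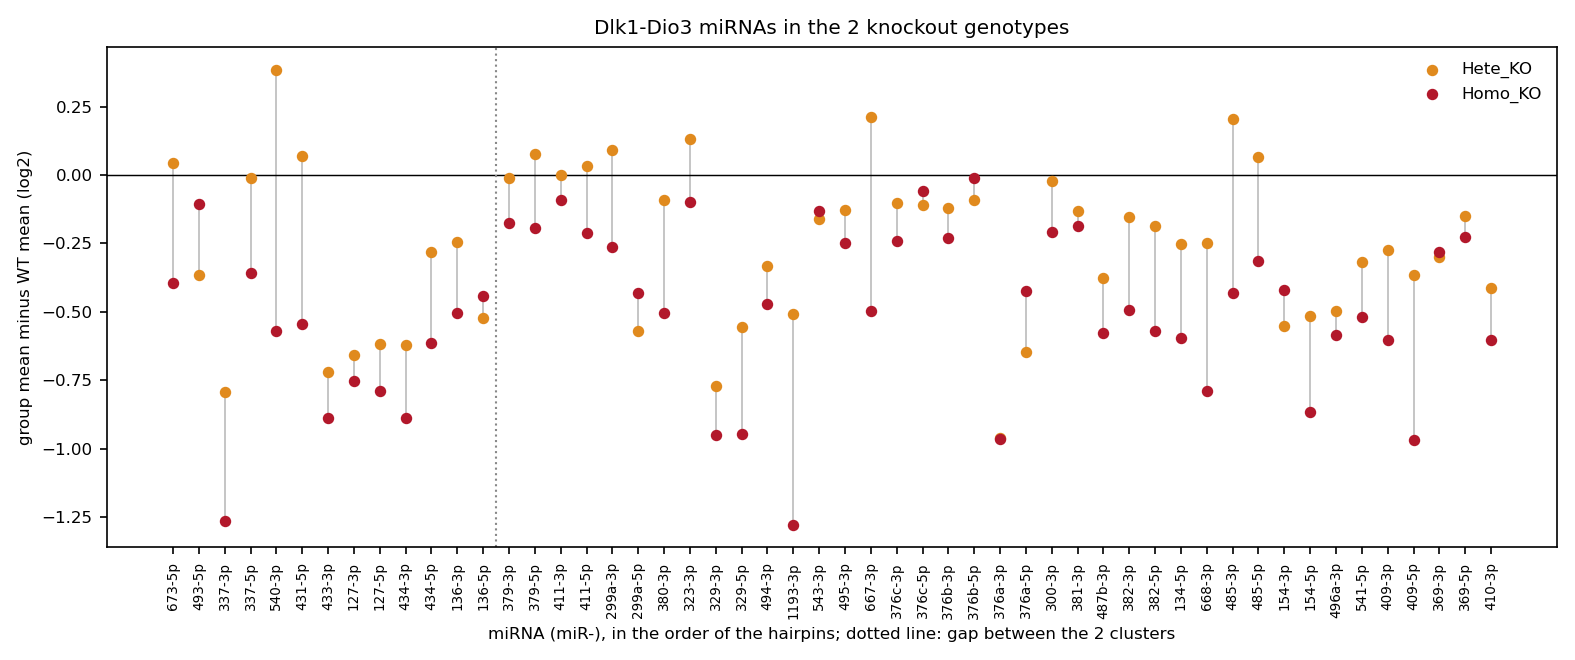
Hete_KO and Homo_KO means minus the WT mean (log2, vertical) for 52 tested miRNAs of the Dlk1-Dio3 clusters in the order of their hairpins. Homo_KO points are mostly below Hete_KO points, by more in some miRNAs than in others, and both are mostly below 0.

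miR-221 and miR-222, paired on the X chromosome (19146294 to 19146971, minus strand) and known in endothelium for restraining angiogenesis, stepped down mainly with the first allele. All 4 tested arms had means in falling order, with −0.78 from WT to Hete_KO and −0.15 from Hete_KO to Homo_KO. miR-221-3p was at 13.06, 13.06 and 12.80 in WT, 12.58, 11.74 and 11.85 in Hete_KO and 12.09, 11.85 and 12.09 in Homo_KO. All knockout libraries were below WT, and the knockouts overlapped with a difference of −0.05 ± 0.21 (95% interval −0.53 to 0.43). Without Hete_KO replicate 1 the median of the 4 arms between the knockouts was 0.05, so their order rests on that library.

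The cluster in an intron of Sfmbt2 (chromosome 2, 10466663 to 10517164, plus strand, 66 hairpins) was higher in Homo_KO than in Hete_KO for nearly all its miRNAs, and over all 9 libraries its means were not in allele order. Of 59 mature miRNAs listed 31 were tested, 30 of them were higher in Homo_KO than in Hete_KO (56.6% of all tested miRNAs), and the median difference was 0.59. Homo_KO lay above Hete_KO without overlap for 13 of the 31, against 9.0% of all. An unadjusted p under 0.05 was found for 15, against 8.38% of all. Hete_KO had the lowest mean for 27, against 31.1% of all, with a median of −0.18 from WT to Hete_KO. None passed the test. The hairpins are repeats of 1 another, many of their miRNAs differ in few bases and several hold identical values, so the 31 are far from 31 separate measurements.

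Within the cluster miR-466b-3p was at 6.46, 6.22 and 6.28 in WT, 6.09, 5.78 and 6.23 in Hete_KO and 6.67, 6.77 and 6.43 in Homo_KO (Homo_KO minus Hete_KO 0.59 ± 0.18, limma adjusted p = 0.509). miR-669a-5p was at 6.03, 5.88 and 6.46 in Hete_KO and 6.49, 6.90 and 6.79 in Homo_KO (0.60 ± 0.21, adjusted p = 0.509). For both the knockouts did not overlap, while WT overlapped Hete_KO and, for miR-466b-3p, Homo_KO too. The centred mean of the 31 was −0.07, 0.04 and −0.11 in WT, −0.26, −0.59 and 0.11 in Hete_KO and 0.21, 0.44 and 0.23 in Homo_KO. Hete_KO replicate 2, the library with the most muscle miRNA and the most miRNAs at the lowest value (152), was the lowest. Without it the median difference was 0.47, with 28 of 31 positive, but the step from WT to Hete_KO was 0.04, 13 of 31 means were in rising order and Hete_KO was lowest in 15. That the cluster left the allele order thus rests on this library. The median difference between the knockouts ranged from 0.47 to 0.74 with each library left out.

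**Figure D5:**
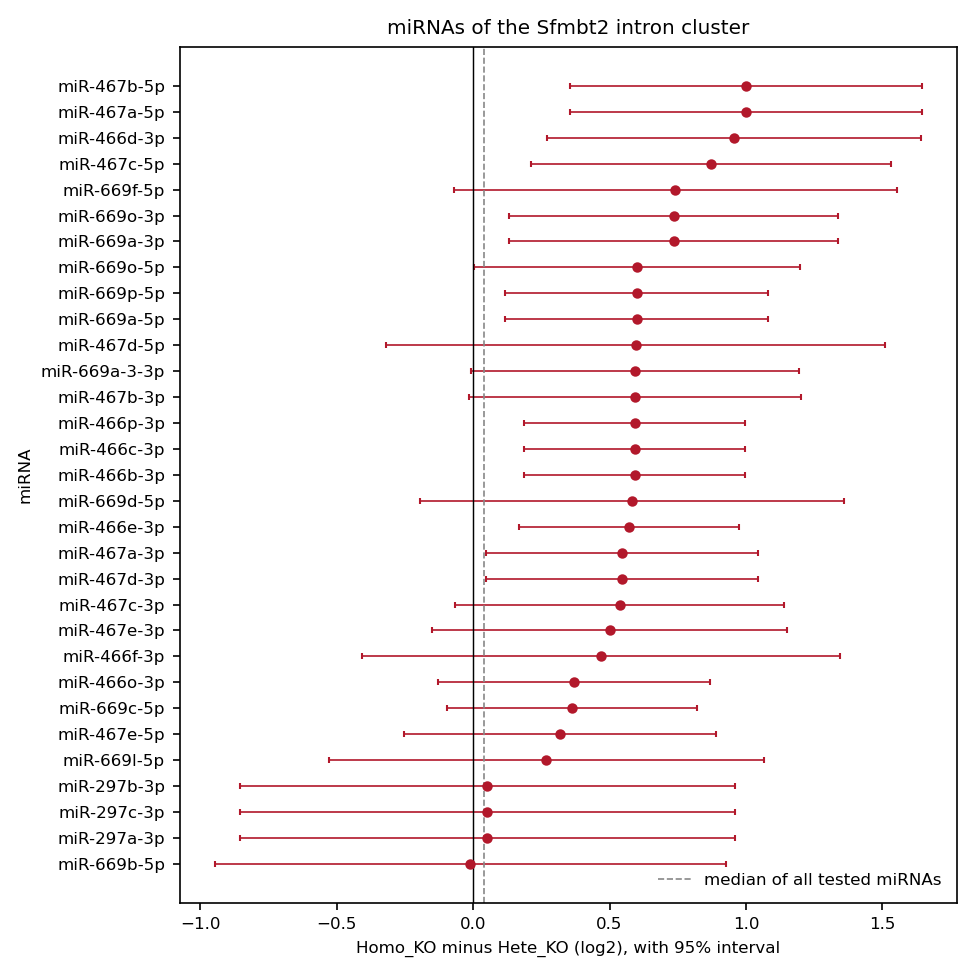
Homo_KO minus Hete_KO (log2, horizontal) with its 95% interval for the 31 tested miRNAs of the Sfmbt2 intron cluster, with 3 mice a group. Of the 31 estimates 30 are above 0 and the dashed line marks the median of all tested miRNAs, 0.04. Identical rows are miRNAs with identical values.

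Several smaller groups were also off the allele order, and single mice decided some of them. The miR-34b and miR-34c hairpins gave 4 of 4 miRNAs higher in Homo_KO than in Hete_KO (median 0.68, and 0.36 without Homo_KO replicate 1), after −0.27 from WT to Hete_KO. Without Hete_KO replicate 2 the step from WT was 0.11, and 3 of 4 stayed higher in Homo_KO by a median of 0.37. miR-451a, a red blood cell miRNA, was at 13.84, 13.12 and 13.24 in WT, 11.79, 12.77 and 12.38 in Hete_KO and 12.63, 13.12 and 12.87 in Homo_KO. It was lowest in Hete_KO, with a departure of −0.82 ± 0.24 (limma adjusted p = 0.534), and the erythroid list differed by 0.34 between the knockouts (exact permutation test, two-sided p = 0.6). That list was split: 3 of its 5 miRNAs were higher in Homo_KO than in Hete_KO and lowest in Hete_KO. The other 2, miR-486a-5p and miR-486b-5p, differed by −0.06 and −0.04 and had means in falling order. Without Hete_KO replicate 1 the median of miR-451a and both miR-144 arms between the knockouts was 0.30, in place of 0.56. The part of blood in the tissue was not tested.

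The epithelial miR-200 family was highest in Hete_KO for 5 of 5 miRNAs, with a median of −0.92 to Homo_KO. Without Hete_KO replicate 1, which had the most epithelial miRNA, it was 0.14 and all 5 were positive. miR-378, known from muscle and from energy metabolism in fat, was highest in Hete_KO for 5 of 5, with a median of −0.43. Without Hete_KO replicate 2, which had the most muscle miRNA, it was −0.00. The order of the 2 knockouts thus rested on 1 mouse in each family. The centred mean of the miR-200 family did not overlap with WT: it was −0.98 to −0.51 in WT and −0.29 or higher in all 6 knockout libraries. The median from WT to Homo_KO was 0.64. None of the 5 had an unadjusted p under 0.05 for the dose line or the departure. The mean of the 11 epithelial miRNAs did overlap, with 6.19 in WT replicate 3 and 5.94 in Hete_KO replicate 3. All 5 means were in rising order without Hete_KO replicate 1.

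The most abundant families differed little between the knockouts, and several differed more from WT. None of their miRNAs named here passed a test. Of the 10 let-7 and miR-98 guide strands 8 were higher in Homo_KO than in Hete_KO, against 56.6% of all. The median was 0.07 (0.02 to 0.09 with each library left out), after 0.16 from WT to Hete_KO. Without WT replicate 2 the step from WT was 0.00. The centred mean of the 10 was −0.23, −0.42 and 0.15 in WT and −0.02 to 0.14 in the knockouts, so the groups overlapped. For the dose line 3 of the 10 had an unadjusted p under 0.05, near the share of 22.9% over all. The 5 tested miRNAs of the miR-10, miR-99 and miR-100 family were all higher, by a median of 0.22, which ranged from 0.12 to 0.26 with each library left out. miR-30a-5p differed by 0.04 ± 0.09 between the knockouts. The 5 miR-30 5p arms had a median of 0.34 from WT to Homo_KO, and 3 of them had an unadjusted p under 0.05 for the dose line, against 22.9% of all. miR-193b and miR-365, linked to brown fat, were higher in Homo_KO for 4 of 4 by a median of 0.12, after 0.43 from WT to Hete_KO. The step between the knockouts was −0.03 and that from WT 0.58 without Hete_KO replicate 1, and without Hete_KO replicate 2 they were 0.26 and 0.06.

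miR-126a, the miRNA of endothelial cells, in which Ago1 was deleted, was lowest in Hete_KO for both arms. miR-126a-3p was at 17.58, 17.99 and 17.83 in WT, 17.58, 16.84 and 17.45 in Hete_KO and 17.58, 17.58 and 17.45 in Homo_KO. Some of these values are identical because the normalization shares ranked levels between libraries, and the genotypes overlapped for this arm. The mean of both arms was 16.31 to 16.66 in WT and 15.68 to 16.19 in the 6 knockout libraries, with no overlap. From WT to Hete_KO the difference was −0.51 ± 0.19 for the 3p arm (limma adjusted p = 0.221) and −0.54 ± 0.14 for the 5p arm (adjusted p = 0.0825), and to Homo_KO it was −0.27 ± 0.19 (adjusted p = 0.428) and −0.47 ± 0.14 (adjusted p = 0.0869). miR-221, miR-222 and most of the miR-17-92 cluster were also lower in the knockouts than in WT, and the part of endothelial cell number in these differences was not tested. Homo_KO minus Hete_KO was 0.25 ± 0.19 (95% interval −0.18 to 0.67) for the 3p arm and 0.08 ± 0.14 (−0.23 to 0.38) for miR-126a-5p. Neither interval shows that the knockouts were alike. For the mean of both arms the difference was 0.16, and it ranged from 0.04 to 0.22 with a library left out. The lowest value was that without Hete_KO replicate 2, so the lower level in Hete_KO rests largely on that library.

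The 2 arms of a hairpin come from 1 precursor, which allows a description of how far the differences between the knockouts go together. Arms were paired by name, and 1 name can stand for more than 1 hairpin. Over 141 names with both arms tested, Homo_KO minus Hete_KO of the 5p and the 3p arm was correlated. Pearson's r was 0.684 and Spearman's rho 0.478, and the sign was the same in 93. The pair of miR-133a, a muscle miRNA, lay far from the others at −2.28 and −2.87, and without it, a choice made after seeing the data, r was 0.528 and rho 0.467. The arms of a hairpin share the 6 libraries, members of 1 cluster share a transcript, and some Sfmbt2 miRNAs hold identical values. These are therefore not separate observations. In the dose calls, by contrast, miR-142a-5p, miR-342-5p and miR-139-3p passed the test and the other arm of each did not. Whether the slopes of the 2 arms differ was not tested.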

How the data were processed

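Small RNA libraries of 9 mice were prepared with Trizol and the TruSeq small RNA kit, per the labels' protocols, and the build was mm10 per the submitters' processing notes. No label names the aligner, the counting or the normalization. The deposited values are log2 levels of 860 mature miRNAs, with nearly the same ranked values in every library. No pseudocount was added, since values were already logarithms.

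A miRNA was tested if above the library's lowest value in 3 or more libraries and at a mean of at least 3.46, log2(10 + 1): 489 passed and 371 did not. Models were fitted with limma 3.58.1 (R 4.3.3), moderating the spread along a variance trend, to all 9 libraries: group means for Homo_KO minus Hete_KO and for Hete_KO minus the midpoint of WT and Homo_KO, and a line over allele number. p-values were adjusted by Benjamini-Hochberg over the 489 miRNAs. The 3 tests share libraries, and WT enters the first through the estimate of the spread. p-values treat mice as replicates, since the series' design text gives 1 mouse per library.

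Lists of families, clusters and cell type markers, and the comparison itself, were chosen with earlier results of these data known. Hairpins within 10 kb on 1 strand form a cluster (GENCODE vM21, 850 of 860 miRNAs matched by name), and 698 matched a RefSeq sequence. Lists are described by counts and medians only. miRNAs were named for the smallest p in each test (5 in each direction), for abundance within a list, or for the order of their means. miR-1843a-5p, miR-192-5p and the other arms of called miRNAs were chosen after their values were seen. The fit was tested on simulated data with 200 of 489 miRNAs changed. Tables used pandas 2.3.3, exact tests scipy 1.17.1 and plots matplotlib 3.10.9.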

Additional observations from a re-analysis of the deposited data

How the results depend on the processing

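The number of miRNAs called between Homo_KO and Hete_KO stayed at 0 except without the 3 libraries with most muscle miRNA (WT replicates 1 and 2 and Hete_KO replicate 2), where 4 were called: let-7b-5p, miR-10a-5p, miR-26b-5p and miR-30d-5p. Calls of the dose line numbered 3 with no filter, 8 without a variance trend, 52 with sample weights, 12 with the replicate block, 2 without those 3 libraries, 2 with muscle miRNA as a covariate and 1 when the covariate was how many miRNAs stood at the floor of a library, and 2 to 22 with each replicate left out (22 without Hete_KO replicate 2). The departure from the midpoint gave 1 call without a variance trend, 9 without the 3 libraries and 0 to 1 with a replicate left out. The causes were not tested. Under other scalings and filters no described family or cluster changed the sign of its median between the knockouts. The labels say that each mouse is separate, so the numbers were not taken as pairs. Deviations from the group means correlated between −0.28 and 0.55 for same-numbered libraries. For libraries of other numbers and genotypes the range was −0.70 to 0.54. These ranges overlap and do not decide whether same-numbered libraries share anything. Marker means turned in sign with a replicate left out: the lowest and highest values of Homo_KO minus Hete_KO were −0.689 to 0.307 for epithelium, −0.0883 to 0.752 for erythroid cells, −0.00362 to 0.688 for neural cells and −0.0551 to 0.0547 for adipocyte miRNAs. Depth is unknown, and low miRNAs near the lowest value cannot show a fall.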
